A study of Mus musculus with 4 samples.

Results

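The genes described here are the PEA3 ETS factors Etv1, Etv4 and Etv5, the repressor Capicua (Cic), its partners Atxn1 and Atxn1l, and the ETS repressors Erf and Etv3. They are 8 of 21938 protein-coding genes of GENCODE release M21 and were listed by name. A gene region is the gene body and the 10 kb on either side of it, in GRCm38 (mm10). Within these regions, replicate 1 of the Foxr2 p53LOF line had 34 of its 31909 peaks and replicate 2 had 39 of its 38580. The V5 control replicates had 308 and 124 peaks in all, and 0 of them in these regions.

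Binding of FOXR2, a forkhead transcription factor, was mapped by CUT&RUN, in which an antibody guides a nuclease to cut and release the DNA bound by its target. The antibody recognised the V5 tag. The Foxr2 p53LOF line (2 libraries; label genotype FOXR2 P53LoF) was grown from a C57BL/6J brain tumor made by in utero electroporation (IUE) of a V5-tagged FOXR2 vector driven by the CAG promoter, together with CRISPR disruption of Trp53. The V5 control (2 libraries; label genotype H3.3G34R) came from another IUE model of the same strain, without the tag. All libraries were fixed with 0.1% formaldehyde for 1 min. The control therefore differs from the tagged line in its driver as well as in the tag, and these cannot be told apart. Each group holds 2 libraries, and the labels do not say that they came from separate cultures. With 2 libraries against 2, an exact two-sided permutation test cannot go below 1 in 3, so values are given without a test. No RNA or protein was measured in these libraries.

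The PEA3 factors are ETS activators that act downstream of receptor tyrosine kinases and RAS to ERK signaling. Cic keeps their genes silent by binding short octamers such as TGAATGAA and TGAATGGA, with ATXN1 and ATXN1L as stabilizing partners, and ERK phosphorylation relieves this repression. ERF and ETV3 repress ETS target genes themselves, and ERF leaves the nucleus when ERK phosphorylates it. In the developing brain and in gliomas these genes are known as readouts and brakes of FGF and EGF receptor signaling.

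Sequences from the 2 Cic sites and from the PEA3 genes whose sites held Capicua octamers are shown first. The first 2 are the stretches of 250 bases before 2 Cic starts, from RefSeq (GRCm38.p6). The first stretch lies in the site with the highest folds, and the second in the weaker site further into the gene. Neither stretch held a summit of its site. The summits of the first site lay 60 bp and 56 bp downstream of the first annotated start. Those of the second lay 3438 bp and 3414 bp upstream of the second start shown. Capitals mark a match to CGGAAG, the core bound by ETS factors with a flanking base on either side, on either strand. The core without these flanks was not searched.
Cic, first RefSeq start, chr7:25267449-25267698 (+): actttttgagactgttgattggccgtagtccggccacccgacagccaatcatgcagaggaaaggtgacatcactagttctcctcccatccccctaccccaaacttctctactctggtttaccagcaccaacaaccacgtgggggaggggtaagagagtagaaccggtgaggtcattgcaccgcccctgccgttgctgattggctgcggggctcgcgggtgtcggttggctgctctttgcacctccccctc
Cic, second RefSeq start, chr7:25281929-25282178 (+): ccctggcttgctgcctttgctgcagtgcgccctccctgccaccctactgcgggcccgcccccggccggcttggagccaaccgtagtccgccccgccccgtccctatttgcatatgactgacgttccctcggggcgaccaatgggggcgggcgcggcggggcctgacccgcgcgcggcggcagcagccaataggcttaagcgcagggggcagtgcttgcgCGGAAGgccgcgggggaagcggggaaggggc
The stretch before the first start held no match to any motif searched, and that before the second start held CGGAAG. Promoters in the RefSeq table were found for Etv1, Etv5, Cic, Atxn1l, Erf and Etv3.

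The 200 bases before the outermost Etv4 start, read from the same genome build on the strand of the gene, carried 3 Capicua octamers (capitals) on 1 strand.
Etv4, chr11:101785372-101785571 (-): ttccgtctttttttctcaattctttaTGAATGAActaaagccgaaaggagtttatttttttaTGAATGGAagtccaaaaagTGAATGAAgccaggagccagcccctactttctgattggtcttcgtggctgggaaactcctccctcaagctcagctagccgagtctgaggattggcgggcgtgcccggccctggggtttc
At the Etv5 gene, octamers lay in the site at the start and in the site inside an intron. They are shown with 11 bases on either side, in the direction of the match, with the position of the octamer itself.
Etv5, start site, chr16:22438711-22438718 (-): ttttttttttgTGAATGAAgcattgagctt
Etv5, start site, chr16:22438789-22438796 (-): gggtgactttaTGAATGAAgcaggtttctt
Etv5, start site, chr16:22439921-22439928 (-): cgcgttttttaTGAATGAAaaacgtcctta
Etv5, intronic site, chr16:22429062-22429069 (-): caaattggttgTGAATGGAgggcggggccc
The letters beside the octamers differed between these matches, and all 4 lay on the strand of the gene.

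Before any filter, every one of the 8 genes had a peak in its region in both Foxr2 p53LOF replicates. Among all protein-coding genes 66.2% had a peak in replicate 1 and 66.9% in replicate 2, and 0.556% had one in either V5 control list. The nearest control peak to any of the 8 genes lay 0.0289 Mb from Etv4, in control replicate 1. A stretch covered by peaks of both replicates occurred at 8 of 8 genes, against 62.6% of all genes. It lay within 1 kb of a start of the gene at 8 of 8, against 50.9%.

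The strength of a peak is its fold enrichment, the fragments at the summit over the background of the library, each plus 1. The peaks at the 8 genes ranged from 3.09 to 55.2 in replicate 1 (median 5.74) and from 2.96 to 72.9 in replicate 2 (median 4.93). The medians over all peaks were 5.30 and 4.93. The study's filter requires a fold above 6, a −log10 q above 6, a length under 10000 bp and no overlap with a control peak. It passed 16 of 34 peaks in replicate 1 (47.1%, against 42.1% of all peaks) and 12 of 39 in replicate 2 (30.8%, against 38.5%). In replicate 1 the values just inside and just outside the minimum fold were 6.19 and 5.74, and in replicate 2 they were 6.24 and 5.59. One peak, at Etv1 in replicate 2, failed for its length.

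**Figure D1:**
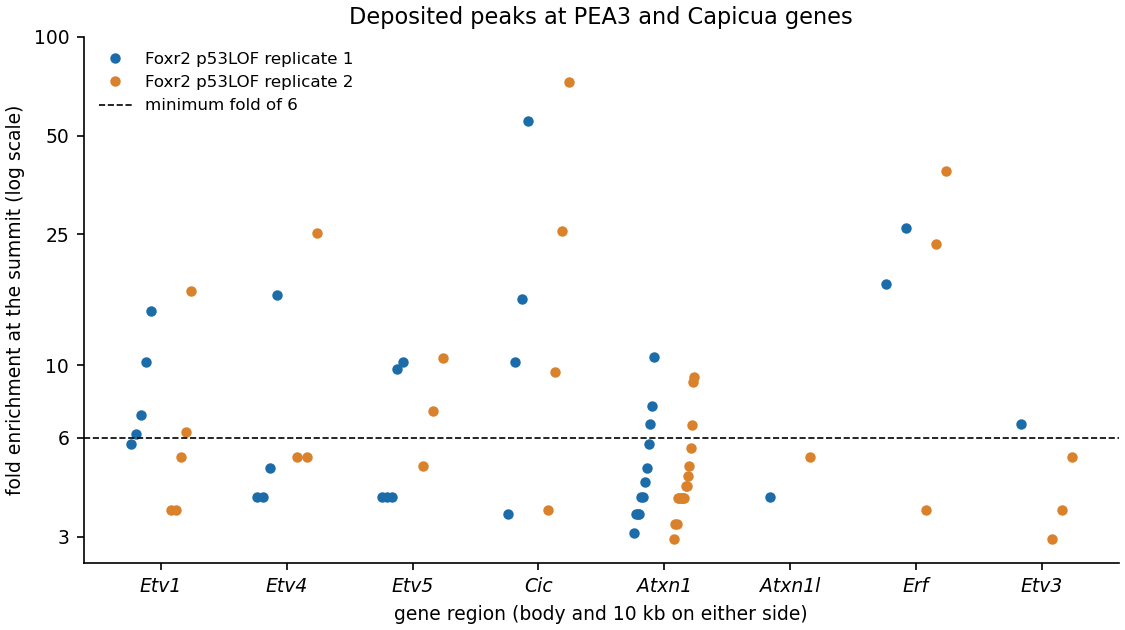
Fold enrichment at the summit (log scale) of each deposited peak in the 8 gene regions, 1 point a peak, by replicate of the Foxr2 p53LOF line; the V5 control had none. The Cic region held the highest peak in each replicate (55.2 and 72.9), and the peaks of Atxn1l lay below the dashed line at a fold of 6.

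A stretch where filtered peaks of both replicates overlap is called a reproducible site. There were 11 such sites in these regions, of 11947 in all. They fell at 5 of 8 genes (Etv4, Etv5, Cic, Atxn1 and Erf), against 50.0% of all genes, so the count of genes with a site was near the background. A site within 1 kb of a start of the gene was present at the same 5 genes, against 39.2%. With long peaks kept, Etv1 joined in both counts (6 of 8, against 50.2% and 39.5%). At least 2 sites were found at 4 of 8 genes (Etv5, Cic, Atxn1 and Erf), against 18.4%. Long genes offer more room for sites: Atxn1, at 415 kb, was the only one of the 8 among the longest 2194 genes, of which 56.8% had a site.

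The 11 sites had a median length of 2855 bp, against 1721 bp over all sites, and the summits of the replicates lay a median of 19.0 bp apart, against 87.0 bp. Their median fold was 10.6 in replicate 1 and 10.5 in replicate 2, against 9.28 and 10.8. Of the 11, 8 lay within 1 kb of a protein-coding start (72.7%, against 65.3%). Replicate 2 had the higher fold at 7 of 11 (63.6%, against 75.1%), and the counting intervals of the replicates overlapped at all 11.

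Among the PEA3 activators, Etv4 had the highest fold at its start, with intervals that overlapped those of Etv1 in both replicates. Its site, chr11:101782701-101786197, covered the gene's start on the minus strand with a fold of 16.3 in replicate 1 (95% exact Poisson interval 11.6 to 22.5, from 36 fragments). In replicate 2 the fold was 25.3 (20.0 to 31.6, from 76 fragments). The replicate summits lay 32 bp apart, 218 bp and 186 bp downstream of the nearer of the 2 annotated starts, in an intron and in an untranslated exon. These intervals, like those that follow, cover counting error only. Weaker peaks lay inside the gene (3.98 and 5.26) and upstream of it (3.98 and 4.86 in replicate 1, 5.26 in replicate 2), all under the minimum fold.

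Etv5 had 2 sites of similar strength. The one at the start, chr16:22437947-22440801, had folds of 10.2 (6.53 to 15.2) and 10.5 (7.25 to 14.8), with summits 550 bp and 556 bp upstream of the first start. The intronic one, chr16:22428455-22430863, had folds of 9.72 (6.18 to 14.6) and 7.23 (4.60 to 10.9), 7078 bp from the nearest start. The intervals of the start and the intron overlapped in each replicate. Another pair of peaks inside the gene, at 3.98 and 4.93, did not pass the filter.

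Etv1 had strong peaks at its starts and yet no reproducible site under the study's filter. In replicate 1, 3 separate peaks lay over the first 11 kb, with folds of 14.6 (10.1 to 20.4), 6.19 (3.50 to 10.3) and 10.2. In replicate 2 a single peak of 12818 bp, chr12:38777660-38790477, covered the same stretch with a fold of 16.8 (12.5 to 22.0), and its length put it past the limit. The highest summits of the replicates lay 475 bp and 436 bp upstream of the first Etv1 start. Further into the gene, 2 more pairs straddled the minimum fold: 7.07 and 5.26 with the replicate 1 summit 60856 bp from the nearest start, and 5.74 and 6.24 with that summit 71272 bp away.

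**Figure D2:**
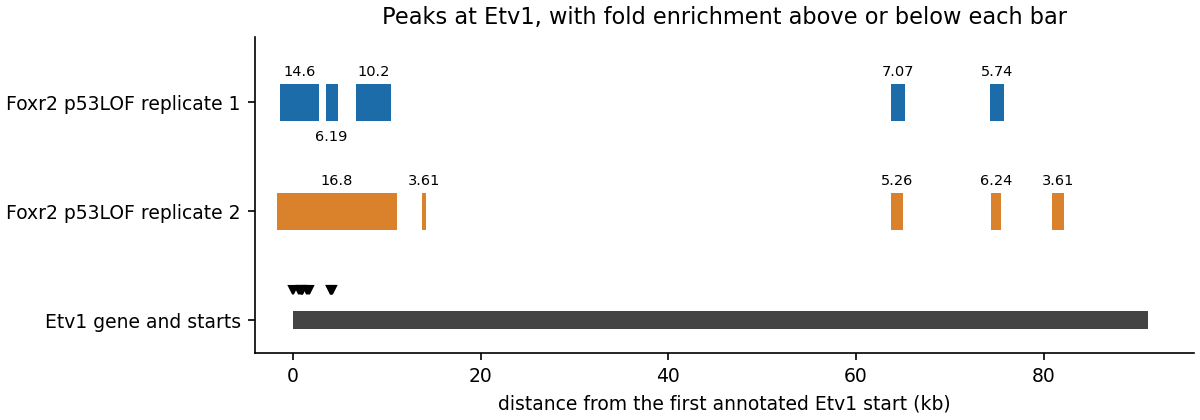
Peaks at Etv1 by distance from the first annotated start (kb); bars are deposited peaks with their fold enrichment, triangles are annotated starts of the gene. The 3 leftmost peaks of replicate 1 (14.6, 6.19 and 10.2) lie within the single long peak of replicate 2 (16.8).

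The highest binding was at Cic, the gene of the repressor. The site at its first start, chr7:25266844-25269260, had a fold of 55.2 in replicate 1 (46.0 to 65.8, from 124 fragments). In replicate 2 it was 72.9 (63.7 to 83.2, from 221 fragments). Both summits lay in the first intron, 60 bp and 56 bp downstream of the start, 4 bp apart. By the weaker replicate this site ranked 8 among the promoter sites of 8599 genes. Peaks on chromosome 7 ran higher than the autosomes as a whole, with a median fold 1.08 times theirs in replicate 1 and 1.27 times in replicate 2. Divided by these levels, the lower fold at Cic was 51.0.

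A second Cic site, chr7:25277927-25283504, covered 2 of the internal starts of the gene, with folds of 15.9 (11.2 to 21.9) and 25.6 (20.3 to 31.9). It ran for 5578 bp, and both its summits lay in an intron, 3438 bp and 3414 bp upstream of the next internal start. Its intervals did not overlap those of the first site in either replicate. The remaining site in the region, chr7:25297620-25298404, belonged by position to the start of the neighbouring gene Pafah1b3, a catalytic subunit gene of platelet-activating factor acetylhydrolase. Its folds were 10.2 (6.53 to 15.2) and 9.53 (6.44 to 13.6), with both summits at the same base.

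Erf lies 16.9 kb from Cic with no annotated protein-coding gene between them. Its own site, chr7:25246024-25252569, covered the start and ran into the gene over 6546 bp, with folds of 17.7 (12.7 to 24.0) and 23.3 (18.3 to 29.4). The summits lay in an Erf intron, 2472 bp and 2460 bp downstream of the nearest start. The highest peak in the Erf region stood at the start of Gsk3a, the gene of glycogen synthase kinase 3 alpha, in chr7:25237368-25240487. Its folds were 26.1 (19.9 to 33.6) and 39.1 (32.4 to 46.8), with summits 500 bp and 481 bp upstream of that start. Over the stretch from Gsk3a to Pafah1b3 there were 5 reproducible sites and 0 control peaks, and the nearest control peak lay 13.2 Mb away.

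**Figure D3:**
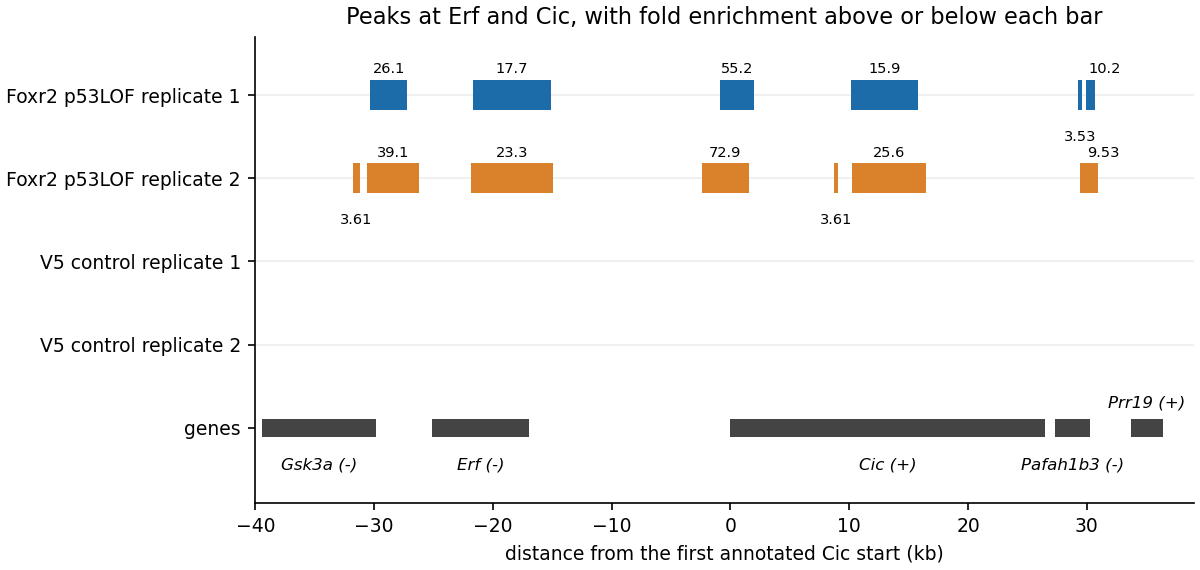
Peaks of the 4 libraries around Erf and Cic by distance from the first annotated Cic start (kb), with fold enrichment above or below each bar and the strand of each gene in brackets. The Cic start held the highest fold (55.2 and 72.9), ahead of Gsk3a (26.1 and 39.1), and the control libraries had no peak in the stretch shown.

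The Capicua partners had lower folds than Cic itself. Atxn1 had a site at its start, chr13:45963646-45966627, with folds of 10.6 (6.88 to 15.7) and 8.87 (5.91 to 12.8). The summits lay 1501 bp apart, in an intron in replicate 1 and upstream of the start in replicate 2, so the replicates overlapped there without sharing a summit. The other 2 Atxn1 sites were intronic and stood far from any start.

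The first, chr13:45777724-45778809, was 186835 bp downstream of the nearest start and had folds of 7.51 (4.48 to 11.9) and 6.57 (4.09 to 10.1). The second, chr13:45932147-45934764, was 32294 bp downstream and had folds of 6.63 (3.82 to 10.8) and 9.20 (6.17 to 13.2). Both were short on fragments, at 16 and 19 for the first and 14 and 27 for the second. The other Atxn1 peaks, 9 of 12 in replicate 1 and 14 of 17 in replicate 2, had folds of 2.96 to 5.74 and lay within the gene except 1 in replicate 2. With the minimum fold at 10, Atxn1 had no site.

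Atxn1l, the paralog of Atxn1, had 1 peak in each replicate and no site. The shared stretch at its start, chr8:109736998-109738025, had folds of 3.98 (1.97 to 7.41, from 8 fragments) and 5.26 (3.09 to 8.46, from 15 fragments). Both were below the minimum. Etv3 had a stretch at its start, chr3:87525113-87526429, with folds of 6.63 (3.82 to 10.8, from 14 fragments) and 5.26 (3.09 to 8.46, from 15 fragments). Its replicate 1 peak passed the filter and its replicate 2 peak did not, and each interval spanned the minimum fold of 6. At these depths neither start can be placed above or below the threshold. Intervals also spanned 6 at some sites that passed. These were the first intronic Atxn1 site in both replicates and the second in replicate 1. In replicate 2 they were the Atxn1 start and the intronic Etv5 site.

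Ordered by the weaker replicate at each gene's own start, the folds ran from Cic (55.2) to Erf (17.7), Etv4 (16.3), Etv1 (14.6), Etv5 (10.2), Atxn1 (8.87), Etv3 (5.26) and Atxn1l (3.98). The intervals of Cic and Erf, its neighbour in this order, did not overlap in either replicate. For every other pair of neighbours in the order, from Erf and Etv4 down to Etv3 and Atxn1l, the intervals overlapped in both replicates. The own start was chosen for this order after the values were seen, since the highest peak of the Erf region stood at Gsk3a. In rank among the 8599 genes with a promoter site, Erf stood at 1036, Etv4 at 1324, Etv5 at 4050 and Atxn1 at 5162.

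**Figure D4:**
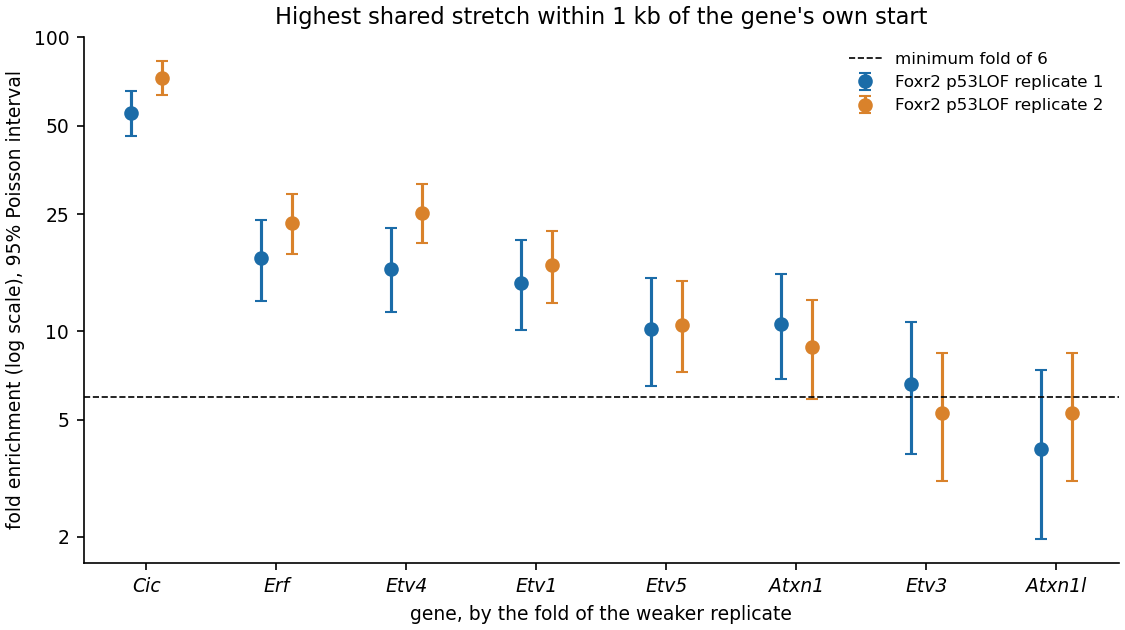
Fold enrichment (log scale) of the highest stretch shared by both replicates within 1 kb of each gene's own start, before the filter, with 95% Poisson intervals from the fragments at the summit. Cic stands clear of the others. The intervals of Etv3 and Atxn1l, and that of Atxn1 in replicate 2, span the dashed minimum fold of 6.

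The promoter folds nearest to those of Cic, by distance on the log2 scale over the 2 Foxr2 p53LOF libraries, were those of Kansl2, a subunit gene of the NSL histone acetyltransferase complex. Its folds were 59.6 and 74.2 (distance 0.114). Next came Cct3, a chaperonin subunit gene, and Tsacc, which share 1 site with folds of 60.5 and 73.9 (distance 0.134). Likeness over 2 libraries says only that these sites were about as strong.

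Motifs were searched on both strands in the 200 bp around the mean of the replicate summits, and a match is a description of the sequence only. CCGGAAGT, the site preferred by ETS factors of the PEA3 and ELK type, was in 0 of 11 sites, against 1.72% of 11943 sites. The shorter CGGAAG, the core with its flanks, which lies within CCGGAAGT, was in 3 of 11 (at Etv4, Pafah1b3 and Gsk3a), against 13.5%. The forkhead motif TGTTTAC was in 1 of 11, against 1.96%. TGAATGAA and TGAATGGA were in 0 of 11, against 1.21% and 0.888%.

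The forkhead matches closest to a summit were those at the intronic Atxn1 sites, which are shown with the motif in capitals.
Atxn1, first intronic site, chr13:45778212-45778218 (+): tgagtgcactaTGTTTACgaggcactctg
Atxn1, second intronic site, chr13:45932665-45932671 (-): aatgtgtcgggTGTTTACttgacatttgc
The first began 98 bp and the second 19 bp from the mean of the summits.

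Capicua octamers lay away from the summits but inside the sites. Over whole sites, TGAATGAA was in 4 of 11 and TGAATGGA in 4 of 11, against 12.1% and 8.36% of all sites. Either one was in 7 of 11, against 18.9% of all sites and 16.7% of those within 1 kb of a start. The whole sites are not of one length, and the median of the 11 was longer than that of all sites, which gives more room for matches. The Etv4 site held 5 octamers over its 3497 bp, and 26 of 11943 sites (0.218%) held 5 or more. The Etv5 start site held 3, and 0.955% of all sites held 3 or more. The octamers shown upstream of Etv4 lay 375 to 430 bp from the mean of the summits. The count of either octamer and the counts of octamers per site were added after the values were seen, and none of these counts carries a test.

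The wider pathway was described with 50 genes in 5 lists. A reproducible site was present at 45 of 50, and one within 1 kb of a start at 40 of 50, against 50.0% and 39.2% of all genes. The median over genes with a site of the highest fold in the weaker replicate was 11.5, against 10.6 over all genes with a site. None of the 50 had a peak in a control list, against 0.556% of all genes, so a list of this size would seldom hold one.

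Among Capicua targets and ERK feedback genes, 14 of 15 had a site (median 12.4). The highest were Shc3, an adaptor gene (32.3 and 47.6), and Ccnd1, the cyclin D1 gene (20.3 and 20.4). Epha2, an ephrin receptor gene on the same list, had no peak in any library.

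For the genes that control PEA3 protein turnover the count was 4 of 4 (median 12.3). Trib1, a pseudokinase that recruits the COP1 ligase, had folds of 24.3 and 43.4, and Cop1, which marks PEA3 proteins for degradation, 12.8 and 18.4. Among binding partners and repression genes 7 of 7 had a site (median 13.3). Sin3a, a corepressor scaffold, reached 22.1 and 41.7, and Ywhaz, a 14-3-3 protein gene, 17.2 and 24.6.

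In the RAS to ERK cascade 12 of 13 genes had a site (median 11.2). Nras reached 19.0 and 20.0, and Rps6ka2, the gene of a kinase activated by ERK, 19.0 and 16.8. Among receptors and adaptors the count was 8 of 11 (median 9.94), the lowest share of the 5 lists. The adaptor gene Shc1 led with 30.0 and 43.4, and Grb2 (13.3 and 14.1) and Fgfr2 (13.3 and 15.8) followed with equal folds in the weaker replicate. Fgfr2 alone held 19 sites in its region, and Egfr had no peak in any library.

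**Figure D5:**
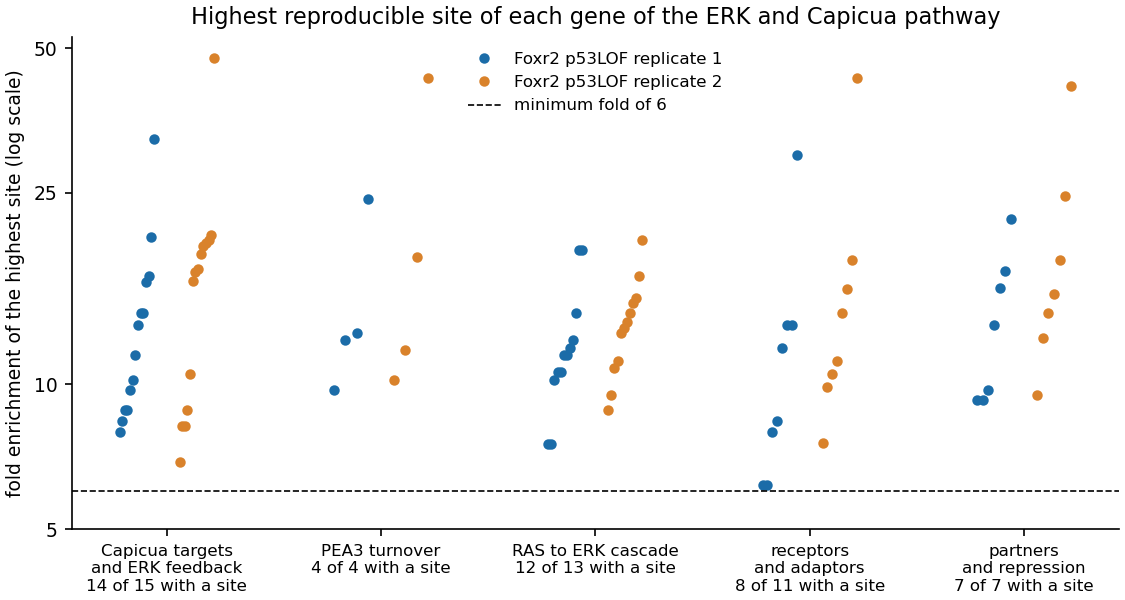
Fold enrichment (log scale) of the highest reproducible site in each gene region of the 5 pathway lists, 1 point a gene and replicate of the Foxr2 p53LOF line; genes without a site are not drawn. The highest point is Shc3 at 47.6 in replicate 2, and the lowest are 2 genes at 6.19 in replicate 1 among receptors and adaptors.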

How the data were processed

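The authors trimmed reads with Trimmomatic 0.39, aligned them to mm10 with BWA 0.7.17, removed duplicates with Picard 2.26.6 and called peaks in each library with MACS2 2.2.7.1, as the labels and the study's methods state. The 4 deposited peak lists give, per the file format, a fold enrichment (a ratio), a −log10 p, a −log10 q and a score that MACS2 computed for the authors. They hold peaks that fail the study's filter on control overlap, q, fold and length, which was applied here. The study's further step, an intersection with open chromatin from single-cell ATAC data, was not applied, since those data were not analysed here. No input library is named in the sources used here.

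Because a fold is the fragments plus 1 over the background plus 1, the background of each library (1.26, 2.04, 1.69 and 0.642) was recovered from the list, and the fragments at each summit gave exact Poisson intervals at 95%. To exceed a fold of 6, a summit needed 13 (replicate 1) or 18 (replicate 2) fragments in the tagged line, and 16 or 9 in the controls. Read totals are not in the peak lists. Intervals do not cover differences between cultures.

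The genes and lists were chosen with earlier results of these data known. Genes named are the 8 genes, genes with a start within 1 kb of a site in their regions, the 2 highest of each list (more where tied), those with no peak in any library, and the 3 promoters nearest to Cic in fold. Sites (1 bp overlap) and motifs were computed in Python 3.11.15 with pandas 2.3.3, scipy 1.17.1 and pysam 0.24.0. The shared-site and library-background steps were tested on simulated peaks, and the motif search was not. Sequences came from GRCm38.p6. Motif shares use 11943 of 11947 sites. Alternatives covered each filter, the overlap, the region, the motif window and each library in turn.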

Additional observations from a re-analysis of the deposited data

How the results depend on the processing

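Cic, Erf, Etv4 and Etv5 kept a site under each alternative run, and the gene count was 4 to 8 of 8. Beside the values given here, 60 recomputed values changed by at most 1.5 times (counts) or lay within the counting interval (folds). Without any filter, 8 genes had a site and 8 a promoter site (5 and 5 with the filter), and the 11 sites became 30. With a minimum fold of 10 there were 6 sites, and with 50 kb on either side 19. Leaving out each library in turn gave 5 to 7 genes with a site, 11 to 16 sites, 5 to 7 genes with a promoter site, and 45 to 47 pathway genes. No control peak lay in any of these gene regions, so runs without a control could not be expected to change the counts. The 60 values include such runs. Leaving out a tagged replicate drops the need for a shared peak, so gene counts could only stay or rise. The gene added without Foxr2 p53LOF replicate 1 was Etv1, and those added without replicate 2 were Etv1 and Etv3. Etv1 joined without replicate 1 through a replicate 2 peak of 6.24, whose replicate 1 pair stood at 5.74. In replicate 2 the Etv3 peak (5.26) failed on fold and the long Etv1 peak on length. Why the replicates differed was not tested.

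Motif counts depended on the window. CGGAAG went from 3 sites to 8 over whole sites and 1 around the site centre, TGAATGAA from 0 to 4 and 1, TGAATGGA from 0 to 4 over whole sites, and TGTTTAC from 1 to 6 and 2. Whole sites are longer than the 200 bp window. Where a summit held few fragments, as at Atxn1l (8 and 15) and Etv3 (14 and 15), the depth leaves some of the order unsettled. This holds for their order against each other, Atxn1 and Etv5. In both replicates the intervals of Atxn1l lay below those of Etv1, Etv4, Erf and Cic. Those of Etv3 lay below those of Etv4, Erf and Cic. No paired analysis was possible because the results are counts and values from no test.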
